A study of Mus musculus with 6 samples.

Results

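The epithelial sodium channel genes Scnn1a, Scnn1b and Scnn1g, 2 genes that control the channel (Nedd4l and Sgk1) and the sodium pump gene Atp1b1 were followed in keratinocytes grown from mouse skin, on 6 Affymetrix arrays that measure whole transcripts. These 6 of 19938 measured genes were chosen by gene symbol, and the rule kept the brightest probe set of a gene over all arrays. Each of the 6 has 1 probe set with a single symbol, so that choice of brightness removed none. The study compared 3 genotypes with 2 arrays each, all from skin of late C57BL/6 embryos labelled female, with RNA of 2 mice pooled on an array. In the Ovol1/2 double knockout group (DKO), cells were Ovol1-/- and carried Ovol2flox/- with K14-Cre, a recombinase driven by the keratin 14 promoter of basal epidermal cells. Cells of the Ovol1 KO group were Ovol1-/-. The control group mixed 2 genotypes, namely Ovol2flox/+ with Ovol1+/-, or Ovol2flox/+ with K14-Cre. All cultures of the 3 groups had received calcium, the signal that starts keratinocyte differentiation. The labels call the arrays of each group biological replicates. Nothing in them says that the pools were cultured separately, so p-values measure the spread between these arrays.

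Sodium enters many epithelial cells from the apical side through a channel built of an alpha, a beta and a gamma subunit, and leaves on the basal side through the sodium pump. The number of channels at the surface is held down by the ubiquitin ligase NEDD4L, which binds the channel tails, and SGK1, a kinase induced by corticosteroid hormones, phosphorylates NEDD4L and so keeps channels at the surface. Membrane-anchored proteases such as prostasin cleave the channel and open it. In skin the channel genes are expressed by keratinocytes, and mice without the alpha subunit or without epidermal prostasin have barrier defects.

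Levels are given as log2(intensity + 16) after quantile normalization, and differences as log2 fold changes on that scale. A gene was called at a limma adjusted p below 0.05, adjusted over all 19938 genes. Ovol1 stood at 10.58 and 10.59 in the DKO arrays, 10.53 and 10.22 in Ovol1 KO and 10.27 and 9.85 in control. Ovol2 stood at 8.71 and 8.32 in DKO, 9.0 and 8.99 in Ovol1 KO and 8.12 and 8.82 in control. Neither targeted gene averaged lower in a group that lacks it than in control, and whether its probe set lies in the deleted part is not given in the sources used here, so these values check no label. Xist, which silences 1 X chromosome where there are 2, was high in both DKO arrays and Ovol1 KO 2 (11.97 to 12.26) and low in Ovol1 KO 1 and the control arrays (4.59 to 4.71). Kdm5d, a Y-linked gene, split the arrays the other way, so 3 arrays go against the female label. Genotype and this split cannot be told apart between DKO and control. The summed intensity of 12 keratinocyte markers ran from 98810 to 101600 in DKO, from 91020 to 91980 in Ovol1 KO and from 87440 to 92260 in control. Krt15 held much of the rise, with intensities of 8629 and 4534 in DKO, 513 and 2006 in Ovol1 KO and 240 and 503 in control. In DKO against control limma called Krt15 higher (log2 fold change 4.06, adjusted p = 0.0267) and Itgb4 lower (-0.79, adjusted p = 0.03). The other 10 did not pass. The sum of 15 fibroblast markers ran from 7227 to 7926 in DKO, from 2665 to 3669 in Ovol1 KO and from 2961 to 3496 in control, and 3 genes chosen after their values were seen, Postn, Thy1 and Dpp4, held most of it in DKO. Of the 15, 11 had a positive log2 fold change in DKO against control and 4 had a negative value. Postn was called higher (4.16, limma adjusted p = 0.00704), Pdgfra was called lower (-1.06, adjusted p = 0.0309) and 13 did not pass. Among those 13 were Col1a1 (0.20, adjusted p = 0.796), Col3a1 (0.18, adjusted p = 0.841), Dcn (0.83, adjusted p = 0.287) and Col5a2 (0.81, adjusted p = 0.0725). Col5a2 was called higher in DKO against Ovol1 KO (1.04, adjusted p = 0.0403). The sum of 12 melanocyte markers was 2205 and 1602 in DKO, 7573 and 1874 in Ovol1 KO and 5685 and 1814 in control. Of the 12, 11 had a negative log2 fold change in DKO against control and 1 had a positive value. Kit was called lower (-1.43, limma adjusted p = 0.0346) and 11 did not pass. In DKO against Ovol1 KO, Kit was again the only one called (-2.14, adjusted p = 0.0111).

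Scnn1g and Scnn1b lie next to each other on chromosome 7, at 121734420 to 121768482 and 121865038 to 121918728 in assembly GRCm38.p6, 96.6 kb apart and on the same strand. No other measured gene lies between them. The promoter windows of this pair and of Atp1b1 are shown because these genes had lower values together in DKO. They are RefSeq sequences of GRCm38.p6, 250 bases before to 50 after a start in that table, which for Scnn1g lies inside the gene span given above. Capitals mark CAGGTG or its reverse CACCTG, the E-box letters bound by Zeb and Snail repressors.
Scnn1g (chr7:121734229-121734528, plus strand): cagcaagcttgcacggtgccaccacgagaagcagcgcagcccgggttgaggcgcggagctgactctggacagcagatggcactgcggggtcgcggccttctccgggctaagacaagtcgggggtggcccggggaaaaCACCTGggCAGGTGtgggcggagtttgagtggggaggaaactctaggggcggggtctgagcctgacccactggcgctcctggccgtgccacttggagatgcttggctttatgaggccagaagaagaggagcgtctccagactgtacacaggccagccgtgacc
Scnn1b (chr7:121864788-121865087, plus strand): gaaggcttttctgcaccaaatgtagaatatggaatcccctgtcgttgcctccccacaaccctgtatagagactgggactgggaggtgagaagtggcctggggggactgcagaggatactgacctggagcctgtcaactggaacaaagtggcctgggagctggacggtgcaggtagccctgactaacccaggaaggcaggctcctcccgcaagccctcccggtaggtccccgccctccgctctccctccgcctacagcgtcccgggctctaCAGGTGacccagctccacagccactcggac
Atp1b1 (chr1:164458306-164458605, minus strand): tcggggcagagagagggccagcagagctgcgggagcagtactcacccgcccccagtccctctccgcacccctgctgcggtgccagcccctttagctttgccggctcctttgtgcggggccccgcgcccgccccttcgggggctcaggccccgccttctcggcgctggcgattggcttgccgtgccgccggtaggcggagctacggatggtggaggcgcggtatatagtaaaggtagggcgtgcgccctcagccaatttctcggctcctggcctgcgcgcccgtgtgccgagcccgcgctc

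Windows were searched for 4 of the 6 genes, Scnn1b, Scnn1g, Sgk1 and Atp1b1, with 6 windows at different starts for Sgk1. Member windows on chromosome 18, where Nedd4l lies, were left out by choice, so Nedd4l was not searched. Both Scnn1 windows hold the E-box letters. In Scnn1g they lie before the start, the first in reverse, at first-base positions -113 and -105, and in Scnn1b they begin at position 21. Atp1b1 and the 6 Sgk1 windows hold none. Positions count from the start that the window was cut around. Of all 32851 promoter windows in the table, 20.2% hold these letters on either strand. CCGTTA, the core bound by OVOL proteins, was searched on both strands and was in 0 of the 9 windows, against 2.76% of all windows. The Grhl letters AACCGGTT, which read the same on both strands, were also in 0 of 9, against 0.146% of all windows. The TATA box letters TATAAA, searched on both strands, were in 2 of 9 windows, both of Sgk1, against 13.6% of all windows. The matches did not overlap each other, and a match describes letters, not a bound site.

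The channel's alpha subunit gene Scnn1a, needed for any channel to form, stood at 8.82 and 8.35 in DKO, against 11.39 and 10.62 in Ovol1 KO and 11.43 and 10.78 in control. The deposited linear intensities were 434 and 316 in DKO, 2714 and 1565 in Ovol1 KO and 2858 and 1724 in control. Both DKO arrays lay 1.80 log2 units or more below every other array. Scnn1a averaged 8.59 ± 0.33 in DKO and 11.11 ± 0.46 in control (SD, n = 2 each), and its log2 fold change was -2.52 (SE 0.34, limma adjusted p = 0.0136). That is 5.74-fold lower in DKO, or a ratio of DKO to control of 0.174 with a 95% interval from 0.1 to 0.304.

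Scnn1g, which encodes the gamma subunit that proteases cleave, stood at 6.62 and 6.84 in DKO, against 9.62 and 8.74 in Ovol1 KO and 9.54 and 8.74 in control. The gap between the higher DKO array and the lowest other array was 1.90, the widest among the 6 genes. The gene averaged 6.73 ± 0.16 in DKO and 9.14 ± 0.57 in control (SD, n = 2 each), with -2.41 as the log2 fold change (SE 0.37, limma adjusted p = 0.0208). Its DKO levels lay near the lower quartile of all levels (6.84), where the offset matters. Raising intensities by 1 gave a log2 fold change of -2.59 and raising them by 64 gave -1.99, and both kept the call.

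Scnn1b, the gene of the beta subunit, whose tail carries a NEDD4L binding motif, stood at 7.33 and 7.63 in DKO, against 9.91 and 8.74 in Ovol1 KO and 9.98 and 9.0 in control. No array of another group reached down to the DKO arrays, which lay at least 1.11 log2 units lower. Its log2 fold change in DKO against control was -2.01 (SE 0.45), but the adjusted p of 0.0737 in limma missed the threshold. The arrays of one group differed by up to 1.17 for this gene, which is the spread of Ovol1 KO.

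**Figure D1:**
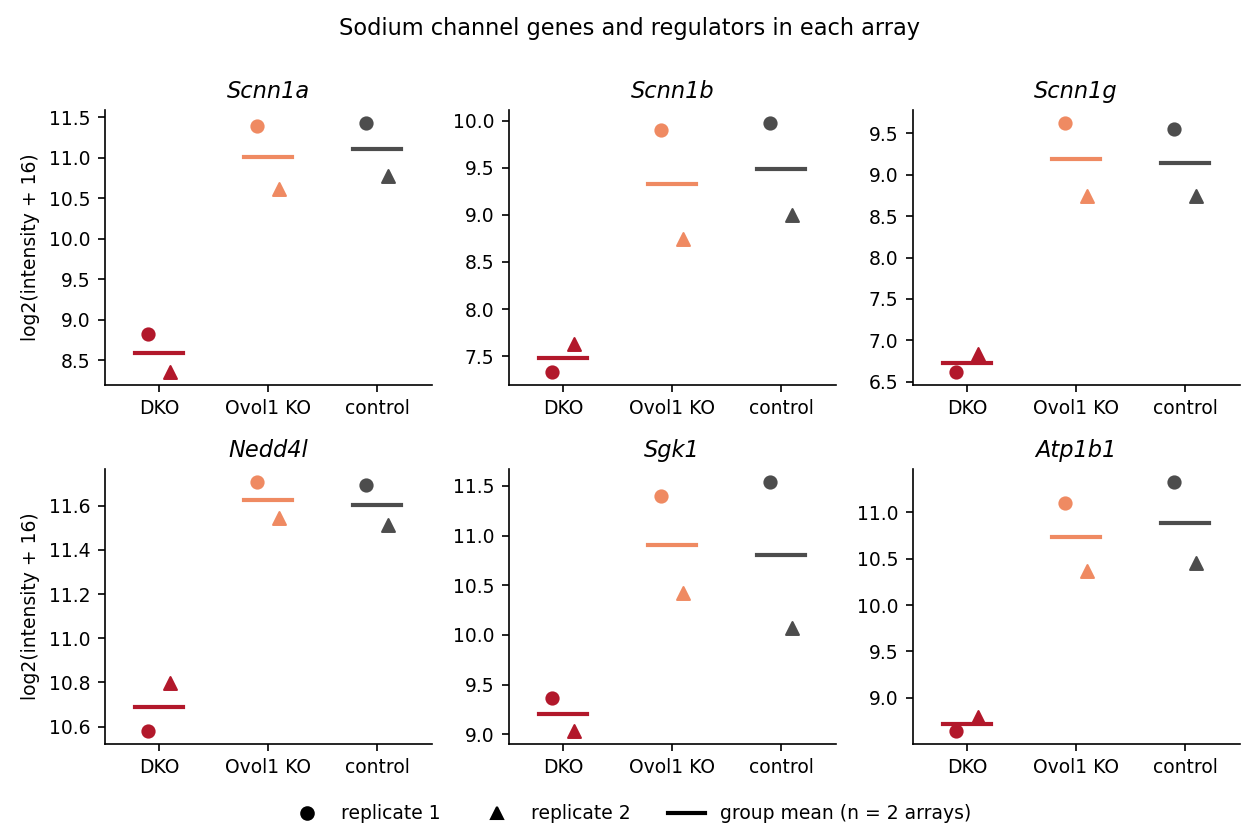
Log2(intensity + 16) of the 6 genes in each array, by genotype (DKO, Ovol1 KO, control); circles are replicate 1, triangles replicate 2 and lines the mean of 2 arrays, and each panel has its own vertical axis. Both DKO arrays lie below the other 4 arrays in every panel, and in Ovol1 KO and control the circle lies above the triangle.

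Nedd4l, the gene of the ubiquitin ligase that removes the channel, was also lower in DKO. It stood at 10.58 and 10.80 in DKO, against 11.71 and 11.55 in Ovol1 KO and 11.69 and 11.51 in control. The arrays of a group lay close together, with SDs of 0.15 in DKO, 0.11 in Ovol1 KO and 0.13 in control (n = 2 each). Nedd4l fell by 0.91 on the log2 scale in DKO against control (SE 0.15, limma adjusted p = 0.027), which is 1.88-fold. The gene that removes the channel thus changed in the same direction as the channel genes, by the smallest log2 fold change of the 6. Whether its change differs in size from theirs was not tested.

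Sgk1, the kinase gene that responds to corticosteroids, had the widest spread of the 6 genes in control. Its levels were 9.37 and 9.03 in DKO, 11.40 and 10.42 in Ovol1 KO and 11.54 and 10.07 in control. Both DKO arrays lay below all others, by at least 0.70, yet the 2 control arrays were 1.47 apart. The log2 fold change in DKO against control was -1.61 (SE 0.51, limma adjusted p = 0.192), so this gene did not pass. Its value was -0.87 against control 2 alone and -2.34 against control 1 alone, each set against the DKO mean.

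Atp1b1, which encodes the beta-1 subunit that brings the sodium pump to the membrane, stood at 8.64 and 8.79 in DKO, against 11.10 and 10.36 in Ovol1 KO and 11.33 and 10.45 in control. It averaged 8.72 ± 0.11 in DKO and 10.89 ± 0.62 in control (SD, n = 2 each). Its log2 fold change of -2.17 passed the test (SE 0.35, limma adjusted p = 0.025), and the level was 4.51-fold lower. In bulk RNA such a difference does not separate fewer cells that express a gene from less RNA in each cell.

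Across the set, 4 of 6 genes were called lower in DKO against control (Scnn1a, Scnn1g, Nedd4l and Atp1b1), 0 were called higher and 2 did not pass. Over all genes 3.2% were called, 2.26% lower and 0.943% higher. The median log2 fold change of the 6 was -2.09, and that of all genes was 0.02. Both DKO arrays lay below all 4 other arrays for 6 of 6 genes, as they did for 13.4% of all genes. The groups being compared alone, DKO and control, did not overlap and ran lower for 21.5% of all genes, and higher for 23.1%. As the set was assembled with results of these data known, these counts describe it and are no independent evidence.

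The calls rest on both DKO arrays. Without DKO 1 or without DKO 2, 0 of the 6 genes were called by limma, while 6 and 5 of them kept an unadjusted p below 0.05. Each remaining DKO array is then assumed to vary like the other groups. The log2 fold change of Scnn1a was -2.75 without DKO 1 (adjusted p = 0.0566) and -2.29 without DKO 2 (adjusted p = 0.0793). Nedd4l also lost its call without control 1 and without either Ovol1 KO array, and all 6 genes were called without control 2. With the Xist level as a covariate 0 of 6 were called, and 4 had an unadjusted p below 0.05. The log2 fold changes then ran from -1.73 for Scnn1a to -0.62 for Sgk1. Xist hardly varied within DKO (12.12 and 12.26) or within control (4.71 and 4.65). Its slope in that fit came mainly from the contrast of Ovol1 KO 1 (4.59) with Ovol1 KO 2 (11.97). As this pair is a replicate 1 and a replicate 2, the fit cannot separate Xist from replicate number. Its fold changes are thus not estimates adjusted for sex alone.

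A question for the added loss of Ovol2 is whether the genes differ between DKO and Ovol1 KO, which are both Ovol1-/-. Here too 4 of 6 genes were called lower in DKO, the same 4, and 0 were called higher. Over all genes 2.15% were called, 1.49% lower and 0.657% higher. The groups did not overlap for 6 of 6 genes, all lower in DKO, against 16% of all genes lower and 26.1% higher. Scnn1a fell by 2.42 (SE 0.34, limma adjusted p = 0.019) and Scnn1g fell by 2.45 (SE 0.37, adjusted p = 0.0242). Nedd4l fell by 0.94 (SE 0.15, adjusted p = 0.0305) and Atp1b1 fell by 2.01 (SE 0.35, adjusted p = 0.0403). The log2 fold change was -1.84 for Scnn1b (adjusted p = 0.116) and -1.71 for Sgk1 (adjusted p = 0.194). This comparison uses the same DKO arrays as the one against control, so the 2 are not independent.

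Of the 3 arrays with high Xist, DKO 1, DKO 2 and Ovol1 KO 2, only the last is not DKO, so a comparison among them rests on 1 Ovol1 KO array. The 6 genes were lower in both DKO arrays than in Ovol1 KO 2. The mean of the DKO arrays minus Ovol1 KO 2 was -2.03 for Scnn1a, -1.26 for Scnn1b, -2.02 for Scnn1g, -0.86 for Nedd4l, -1.22 for Sgk1 and -1.65 for Atp1b1. Measured against Ovol1 KO 1, which has low Xist, the differences were larger, at -2.81 for Scnn1a, -2.43 for Scnn1b, -2.89 for Scnn1g, -1.02 for Nedd4l, -2.20 for Sgk1 and -2.38 for Atp1b1. Ovol1 KO 1 and Ovol1 KO 2 differ in replicate number as well as in Xist. Control 1 was also above control 2 for 6 of 6 genes, although both have low Xist. What the larger differences follow was not tested. With Ovol1 KO 1 left out, 0 of 6 genes were called between DKO and Ovol1 KO, and 5 had an unadjusted p below 0.05 in limma. Without Ovol1 KO 2, 2 were called, and without DKO 1 or DKO 2, 0 were called.

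Loss of Ovol1 alone left no called difference. Of the 6 genes 0 were called in either direction between Ovol1 KO and control, 0 had an unadjusted p below 0.05 in limma, and 0% of all genes were called, although 162 of 19938 had an unadjusted p below 0.05. The log2 fold changes ran from -0.17 for Scnn1b to 0.10 for Sgk1, with a median of -0.04 against -0.06 over all genes. Their 95% intervals were -0.90 to 0.70 for Scnn1a, -1.24 to 0.90 for Scnn1b, -0.83 to 0.91 for Scnn1g, -0.33 to 0.38 for Nedd4l, -1.10 to 1.31 for Sgk1 and -0.99 to 0.67 for Atp1b1. A change in Nedd4l beyond about 1.3-fold up lies outside its interval, while for Sgk1 a rise of up to 2.47-fold lies within it. The 2 groups overlapped for all 6 genes, while over all genes they ran apart for 18.3% lower and 5.8% higher in Ovol1 KO.

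**Figure D2:**
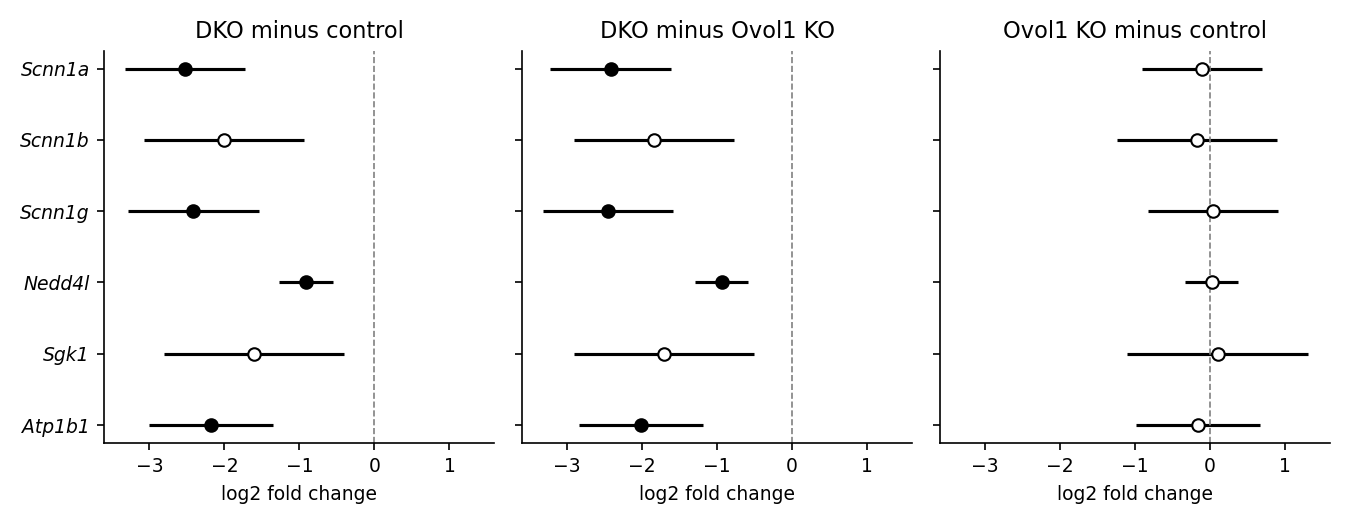
Log2 fold changes of the 6 genes in the 3 comparisons (horizontal axis, limma fit of 6 arrays); bars are 95% intervals, filled points have an adjusted p below 0.05 and open points do not. The intervals of DKO minus control and DKO minus Ovol1 KO lie below 0 for all 6 genes, although the adjusted p of Scnn1b and Sgk1 missed the threshold, and those of Ovol1 KO minus control span 0.

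The genes also differed by replicate number. Replicate 1 was above replicate 2 in both Ovol1 KO and control for 6 of 6 genes, as for 24.3% of all genes. For 5 of 6, all but Nedd4l, the difference was over 0.5 in both groups, as for 3.83% of all genes (a limit chosen after the values were seen). Between the control arrays it was 0.65 for Scnn1a, 0.98 for Scnn1b, 0.81 for Scnn1g, 0.18 for Nedd4l, 1.47 for Sgk1 and 0.88 for Atp1b1. In Ovol1 KO it was 0.78, 1.17, 0.88, 0.16, 0.98 and 0.73 for the same genes in that order. In DKO replicate 1 was above replicate 2 only for Scnn1a and Sgk1. The melanocyte marker sum was also higher in replicate 1 of each group, and its part in the channel genes' values was not tested.

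Genes whose levels followed each of the 6 most closely were found by Pearson's r over the 6 arrays, which share groups and replicate numbers, so r is a description. Only genes whose range was at least 0.5 times that of the member were eligible. For Scnn1a they were Aldh1a3, a retinaldehyde dehydrogenase gene (r = 0.999), Wipi1 (r = 0.998) and the kallikrein protease gene Klk8 (r = 0.998). Aldh1a3 stood at 8.93 and 8.16 in DKO, 12.64 and 11.67 in Ovol1 KO and 12.73 and 11.65 in control, the same order of arrays within each group as Scnn1a. Scnn1b was followed by the chemokine gene Cxcl2, the peptidoglycan recognition gene Pglyrp4 and Rab11fip5 (r = 0.998 each). Scnn1g was followed by Gne, an enzyme gene of sialic acid synthesis, Castor2 and BC016579 (r = 0.997 each). The profile of Nedd4l was matched by Wdr47 (r = 0.9998), the caveolin gene Cav2 and the transcription factor gene Runx1 (r = 0.998 each). Sgk1 was matched by the transcription factor gene Tfcp2l1 (r = 0.9996), Pecam1 (r = 0.995) and Gpd2 (r = 0.995). Tfcp2l1 stood at 6.70 and 6.24 in DKO, 10.37 and 8.63 in Ovol1 KO and 10.58 and 8.08 in control. Atp1b1 was followed by Cntnap2 (r = 0.999), Usp43 (r = 0.998) and Dbndd2 (r = 0.997).

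The nearest measured gene on each side of the channel genes did not pass in DKO against control. Ltbr and Tnfrsf1a, receptor genes that flank Scnn1a (chromosome 6, 125314271 to 125344943) at 0.385 and 4.78 kb, had log2 fold changes of -0.16 (SE 0.19, limma adjusted p = 0.827) and 0.56 (SE 0.19, adjusted p = 0.231). On either side of the Scnn1g and Scnn1b pair, Usp31 had -0.21 (SE 0.20, adjusted p = 0.766) and Cog7, 4.11 kb from Scnn1b, had -0.19 (SE 0.25, adjusted p = 0.856). The nearest measured genes on each side of Atp1b1 (chromosome 1, 164437099 to 164458355) were Blzf1 and Dpt, at 130 and 338 kb, with log2 fold changes of -0.26 and -0.46, and neither passed (adjusted p = 0.535 and 0.474). Ccdc181, at 149 kb on the side of Blzf1, had -0.91 (SE 0.31, adjusted p = 0.225).

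Beyond the 6, a wider set of sodium transport lists held 68 further measured genes. These lists were also written with results of these data known, so their counts describe them and are no independent evidence. In DKO against control limma called 1 of them higher and 7 lower, against 0.943% and 2.26% of all genes. The other 60 did not pass, and the median log2 fold change was -0.01 against 0.02 over all genes. In DKO against Ovol1 KO, 1 of the 68 was called higher and 6 lower, against 0.657% and 1.49% of all genes. Plau was the gene that no longer passed (adjusted p = 0.0578). In Ovol1 KO against control 0 of 68 were called, and 0 had an unadjusted p below 0.05.

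Proteases that cleave the channel and their inhibitors held most of these calls. In DKO against control 6 of 9 measured genes were called lower, against 2.26% of all genes, and 0 higher, with a median of -1.26. As this list was written with results of these data known, that share only describes it. The 3 that did not pass in limma were Furin (-0.52, adjusted p = 0.168), Tmprss4 (0.34, adjusted p = 0.644) and Tmprss11a (0.91, adjusted p = 0.735). Prss8, which encodes the channel-activating protease prostasin, stood at 10.02 and 10.00 in DKO, against 12.13 and 11.60 in Ovol1 KO and 12.47 and 12.09 in control. St14, the gene of matriptase, a protease that acts with prostasin, stood at 10.07 and 10.04 in DKO, 11.98 and 11.55 in Ovol1 KO and 12.05 and 11.69 in control. The 2 DKO arrays nearly coincided for both genes, and both calls held with each array left out in DKO against control. Tmprss2, a transmembrane serine protease gene, stood at 7.12 and 5.77 in DKO, 9.58 and 8.76 in Ovol1 KO and 9.70 and 8.97 in control, and its log2 fold change was -2.89 (SE 0.50, limma adjusted p = 0.0314). Its level in DKO 2 lay below the 10th percentile of all levels (6.00), where the offset matters. Offsets of 1 and 64 gave -3.17 and -2.33, and both kept this call. In DKO against Ovol1 KO its call was lost with an offset of 1, without the dimmest 30% of genes or without a variance trend. Plau, the gene of urokinase, fell by 1.33 in DKO against control (SE 0.23, adjusted p = 0.0325).

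The inhibitors of these proteases fell as well. Spint1, whose product inhibits matriptase, stood at 11.16 and 10.69 in DKO, 12.23 and 12.07 in Ovol1 KO and 12.39 and 11.97 in control, and its log2 fold change was -1.26 (SE 0.20, limma adjusted p = 0.0267). Spint2, a related inhibitor gene, stood at 11.33 in both DKO arrays, against 11.90 and 11.93 in Ovol1 KO and 11.93 and 11.99 in control. Its log2 fold change of -0.63 (SE 0.11, adjusted p = 0.0312) was the smallest called in these lists, and the call was lost with any 1 array left out. Tmprss2 lost its call without DKO 2 or either Ovol1 KO array, Spint1 without these or control 1, and Plau without DKO 1, control 1 or either Ovol1 KO array.

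**Figure D3:**
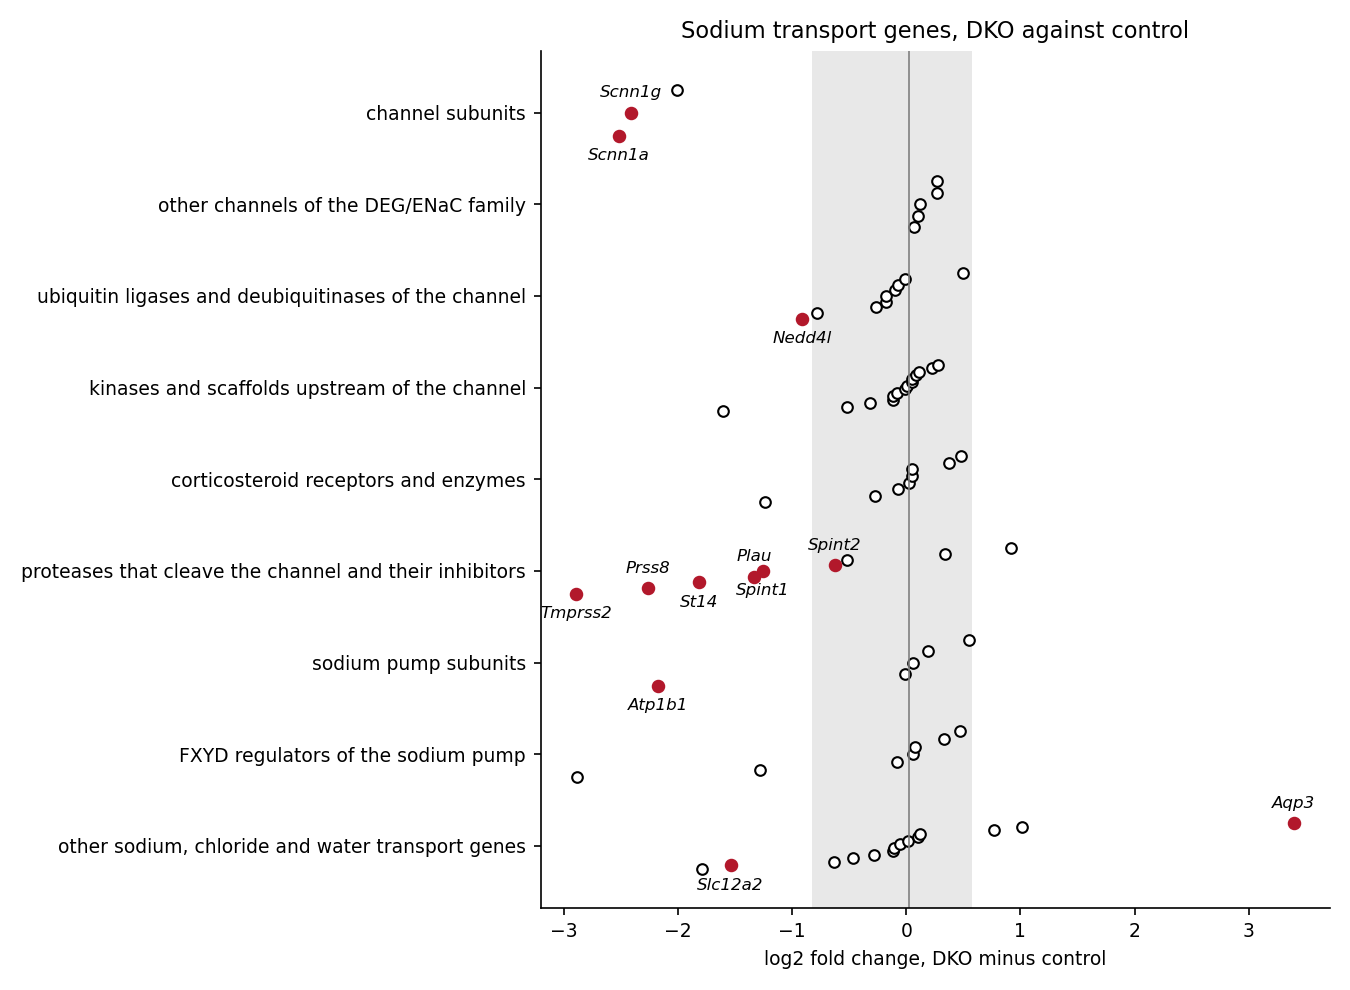
Log2 fold changes of 74 sodium transport genes in DKO minus control (horizontal axis), by list; filled and named points have a limma adjusted p below 0.05, open points do not. The grey band spans the 5th to 95th percentile of all genes (-0.83 to 0.58) and the line is their median; the called genes lie left of the median except Aqp3 at 3.40.

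The remaining lists gave few calls. Of 9 ubiquitin ligase and deubiquitinase genes only Nedd4l passed in DKO against control (median log2 fold change -0.18). Its paralogue Nedd4, chosen after its values were seen, stood at 12.46 and 12.30 in DKO, 12.24 and 12.45 in Ovol1 KO and 12.32 and 12.46 in control. Of 14 kinase and scaffold genes 0 passed in limma (median -0.00). Besides Sgk1, the smallest p was that of the glucocorticoid-induced gene Tsc22d3, at 11.59 and 11.43 in DKO, 12.05 and 12.06 in Ovol1 KO and 12.03 in both control arrays (log2 fold change -0.52, adjusted p = 0.0633).

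Of 8 corticosteroid receptor and enzyme genes 0 passed (median 0.04). Hsd11b1, the gene of an enzyme that makes active glucocorticoid, had a log2 fold change of -1.24 (limma adjusted p = 0.0807). It was -0.77 without control 1 and -1.71 without control 2. The DKO levels of Hsd11b1 (5.92 and 5.89) lay below the 10th percentile of all levels (6.00), where the offset matters. Offsets of 1 and 64 gave -1.48 and -0.82, and neither gave a call. Nr3c1, the glucocorticoid receptor gene, had -0.27 (adjusted p = 0.559). The other channels of the same family gave no call among 5 genes (median 0.12), with log2 fold changes of 0.27 for both Asic5 and Asic1. Without DKO 2 they were 0.01 for Asic5 and -0.004 for Asic1, and without DKO 1 they were 0.53 for Asic5 and 0.54 for Asic1.

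Of the 8 listed sodium pump subunit genes 5 were measured here by a single-symbol probe set, and only Atp1b1 passed (median 0.05). Atp1b3, another beta subunit gene and chosen after its values were seen, stood at 12.48 and 12.23 in DKO, 11.95 and 12.10 in Ovol1 KO and 11.76 and 11.85 in control, a log2 fold change of 0.55 (limma adjusted p = 0.0794). The alpha-1, alpha-2 and alpha-3 subunit genes were not analysed here. None of 7 FXYD genes, which encode small proteins that tune the pump, passed in limma (median 0.06). Fxyd5 had -2.89 as its log2 fold change (SE 0.86, adjusted p = 0.166) with control arrays at 10.34 and 8.12, and Fxyd6 had -1.28 (adjusted p = 0.10).

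Of 14 other sodium, chloride and water transport genes 1 rose and 1 fell in DKO against control. Aqp3, the gene of the epidermal water and glycerol channel, stood at 13.01 and 12.62 in DKO, against 9.53 and 10.64 in Ovol1 KO and 9.56 and 9.28 in control. It rose by 3.40 on the log2 scale (SE 0.35, limma adjusted p = 0.00557), and the call held with each array left out. Slc12a2, the gene of a basolateral sodium, potassium and chloride cotransporter, stood at 9.48 and 9.72 in DKO, 11.03 and 11.12 in Ovol1 KO and 10.96 and 11.32 in control. It fell by 1.54 (SE 0.19, adjusted p = 0.00932), and without DKO 1 the call was lost (adjusted p = 0.0608).

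**Figure D4:**
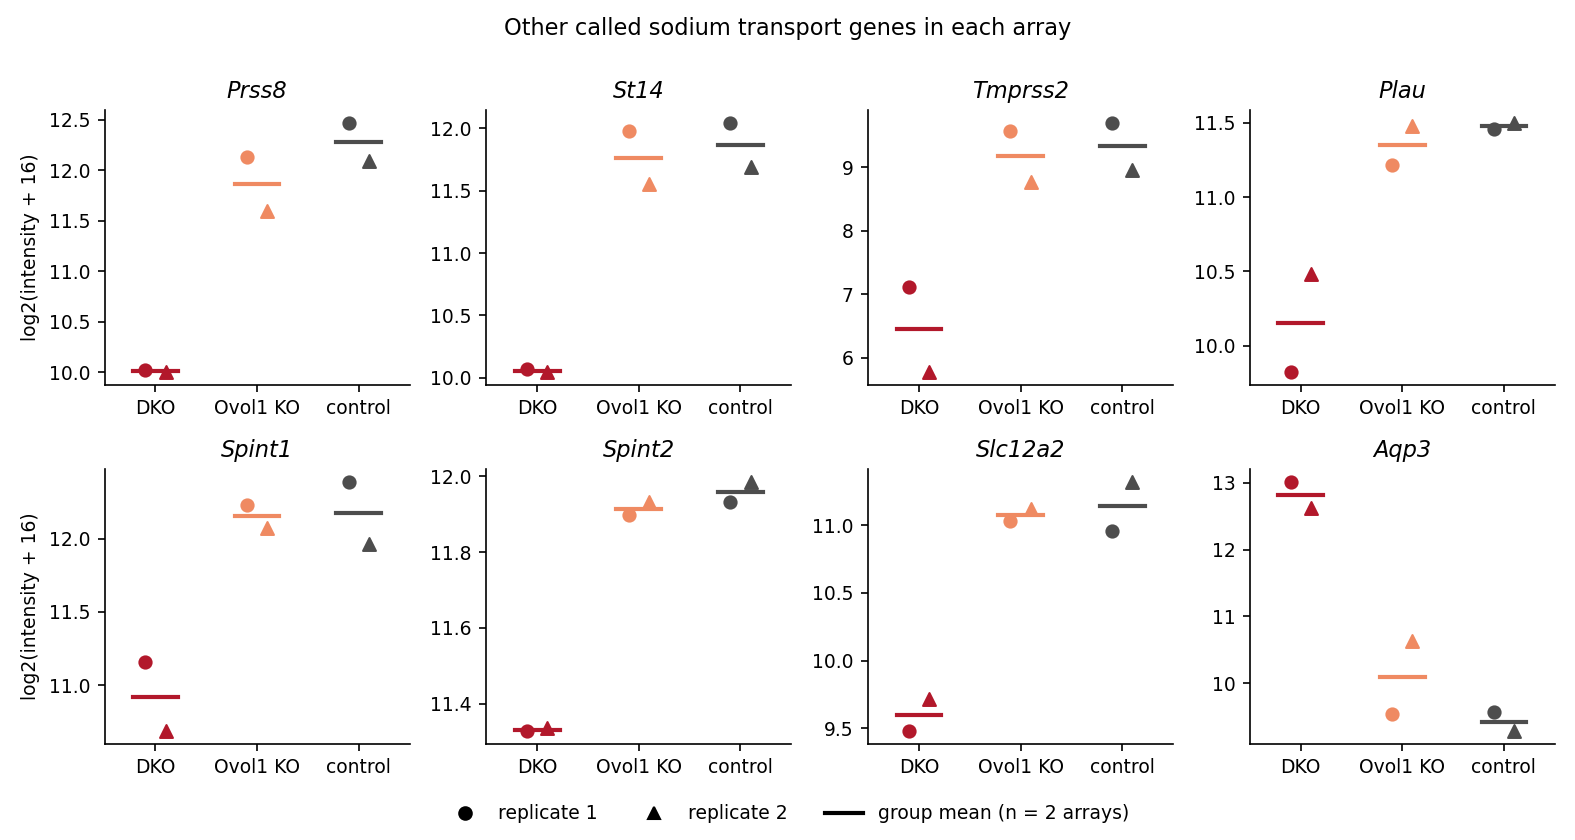
Log2(intensity + 16) of the 8 other called transport genes in each array, by genotype (DKO, Ovol1 KO, control); circles are replicate 1, triangles replicate 2 and lines the mean of 2 arrays, each panel with its own vertical axis. In 7 panels both DKO arrays lie below the other 4 arrays, and for Aqp3, at 13.01 and 12.62, they lie above them.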

How the data were processed

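The deposited values are 1 linear intensity per probe set and array, which the authors had already summarised. Affymetrix Expression Console 1.1.1 and PLIER 2.0 appear in the submitters' processing notes with no role. Background correction, normalization and filters are not stated there. There is no detection call, and the number of arrays limits the precision. Intensities were raised by 16, log2-transformed and quantile-normalized, since array quartiles differed by 0.218, above a limit of 0.2. Of 35556 probe sets 21789 carried 1 symbol in the platform annotation, 1621 several and 12146 none here; 21698 of the first were matched to a RefSeq table of GRCm38.p6 by Entrez identifier, and the match changed 0 symbols. The brightest probe set stood for each of 19938 genes.

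One limma 3.58.1 model (R 4.3.3) gave each group a mean over the 6 arrays, with a variance trend. Benjamini-Hochberg adjustment ran over all genes. The spread is pooled over the 3 groups (3 residual and 3.89 prior degrees of freedom), so arrays outside a comparison also bear on its calls. The procedure was tested on simulated data. The members, gene lists and naming rule were chosen with earlier results of these data known, and the promoter motifs after the values were seen. Named from the 9 transport lists (74 of 80 genes measured) are all called genes and, in lists without a call, the 2 with the smallest p. For likeness, the 3 genes with the highest r per member were named, leaving out predicted and receptor families. Alternatives were offsets of 1 and 64, the values as deposited, no dimmest 30% of genes, no variance trend, probe set means, the 4 arrays compared alone, a replicate block, Xist as a covariate, and each array left out.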

Additional observations from a re-analysis of the deposited data

How the results depend on the processing

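In DKO against control, the count of all genes called by limma (639) was 1069 with a replicate block and 8 with Xist as a covariate, and 258 to 735 with 1 array left out. Members called (4) were 0 with Xist as a covariate and 0 to 6 with 1 array left out. Transport genes called (12) were 7 in a fit of only the 4 arrays compared, 0 with Xist as a covariate and 5 to 17 with 1 array left out. In DKO against Ovol1 KO, all genes called (429) were 738 with only the 4 arrays, 805 with a replicate block, 73 with Xist as a covariate and 88 to 738 with 1 array left out. Members called (4) were 2 without a variance trend, 0 with Xist as a covariate and 0 to 6 with 1 array left out, and transport genes called (11) were 6, 0 and 1 to 16. With the replicate block 6 of 6 members were called in DKO against control and 5 of 6 in DKO against Ovol1 KO. Replicate differences correlated across 19938 genes at 0.687 between Ovol1 KO and control, 0.151 between DKO and control and 0.087 between DKO and Ovol1 KO. Over all genes control 1 correlated more closely with Ovol1 KO 1 (0.994) than with control 2 (0.979), and control 2 more closely with Ovol1 KO 2 (0.992), as a hint from the data. Each DKO array correlated best with the other DKO array (0.978), and no label says that a number marks a shared litter or day. In Ovol1 KO against control, 0 genes were called, and 0 to 4 with 1 array left out (4 without Ovol1 KO 1). There too the fit with Xist as a covariate cannot separate Xist from replicate number. In that fit the log2 fold changes turned sign for Scnn1a (0.28), Scnn1b (0.40) and Atp1b1 (0.19). With 1 array left out they ran from -0.49 to 0.29 for Scnn1a, -0.75 to 0.42 for Scnn1b, -0.40 to 0.48 for Scnn1g, -0.066 to 0.12 for Nedd4l, -0.63 to 0.84 for Sgk1 and -0.60 to 0.28 for Atp1b1. In DKO against control that range was -0.004 to 0.54 for Asic1 and -0.31 to 0.39 for Ovol2. Of the single-gene values under alternatives, 498 kept direction and side of the threshold, 106 lost and 22 gained a call, and 18 turned sign. The cause of these shifts was not tested. With 2 arrays a group and no detection call, dim levels such as those of Scnn1g in DKO are uncertain.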
